A study of Mus musculus with 8 samples.

Results

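The genes described here were 10 secreted immune and growth signals, the chemokines Cxcl1, Cxcl2, Cxcl5, Cxcl10, Cxcl12, Ccl2, Ccl5 and Ccl7 and the cytokines Csf1 and Il6, taken by symbol from the 53700 genes of the count table. Expression was measured by RNA-Seq in Lewis lung carcinoma (LLC) cells, an established mouse lung tumor line. WT cells and FIH-KO cells, in which a CRISPR/Cas9 guide against Hif1an had removed the asparaginyl hydroxylase FIH, were grown for 16 hours in normoxia (21% O2) or in hypoxia (1% O2), and 2 libraries were made for each of the 4 groups. All groups were the same line in the same serum-containing medium. FIH-KO cells had been through guide delivery and single-cell dilution, and how many clones gave the RNA was not given in the sources used here, so a difference between genotypes and a difference between clones cannot be told apart. Whether the 2 libraries of a group came from separate cultures was not given either, and the p values measure the spread between these libraries.

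Chemokines are small secreted proteins that direct the movement of leukocytes through G protein-coupled receptors. Cxcl1, Cxcl2 and Cxcl5 act on Cxcr2 and attract neutrophils, Cxcl10 is induced by interferon and attracts activated T cells through Cxcr3, and Cxcl12 is the ligand of Cxcr4. Ccl2 and Ccl7 attract monocytes through Ccr2, and Ccl5 attracts T cells and monocytes. Csf1 is the growth factor of macrophages, and Il6 is an inflammatory cytokine that signals through gp130 and Stat3. Many of these genes are targets of NF-kB, and their mRNAs are often short-lived. FIH hydroxylates an asparagine of the HIF alpha subunits and thereby limits their recruitment of coactivators.

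Library totals lay between 14519731 and 18177016 reads counted on genes, and values below are CPM, read counts relative to the library total and scaled with TMM factors. Hif1an, the targeted gene, had 83.3 ± 1.61 CPM in WT and 36.2 ± 2.05 CPM in FIH-KO cells in normoxia (SD, n = 2 each), and 87.0 ± 4.34 against 48.2 ± 3.88 CPM in hypoxia. Of the leukocyte markers, Ptprc lay between 0 and 0.205 CPM, Adgre1 had no read in any library, and Cd68 lay between 2.63 and 7.18 CPM. Lyz2, on the same list, was the only one of its 4 tested genes to pass between genotypes. FIH-KO cells exceeded WT cells in Lyz2 by 3.74 (normoxia) and 3.75 (hypoxia) on the log2 scale, with edgeR adjusted p of 0.00044 and 0.0010. In 11 other fits these Lyz2 values ranged from 3.33 to 4.34 and from 2.90 to 4.56. The summed level of the 13 leukocyte markers lay between 15.3 and 15.6 CPM in WT and between 19.5 and 24.0 CPM in FIH-KO libraries in normoxia, and between 25.0 and 28.3 CPM in WT and 24.9 and 25.6 CPM in FIH-KO libraries in hypoxia. Of the epithelial markers, Epcam had no read and Cdh1 lay between 0 and 0.0682 CPM, while Krt8, a keratin on the same list, lay between 104 and 332 CPM and was higher in FIH-KO cells (log2 fold change 1.02 in normoxia and 1.00 in hypoxia). Vim, a mesenchymal gene on the fibroblast list, lay between 3185 and 5437 CPM, and of the endothelial markers Pecam1 stayed at or below 0.545 CPM. Cdh5, the only endothelial marker tested, rose in hypoxia in WT cells (log2 fold change 4.01, adjusted p = 0.0010 by edgeR). In hypoxia it was lower in FIH-KO cells (-2.62, adjusted p = 0.0051 by edgeR), a call that depended on WT hypoxia replicate 1 (-2.24 without it). Cdh5 entered the test through the WT hypoxia group, where it was high, so neither call is independent of that entry. The summed endothelial list lay between 0.414 and 0.578 CPM in normoxia, and in hypoxia between 2.05 and 2.74 CPM in WT and 0.455 and 0.811 CPM in FIH-KO libraries. The summed fibroblast list was higher in FIH-KO libraries (7089 to 7514 CPM against 4732 to 5729 in normoxia, 6423 to 6766 against 3924 to 4213 in hypoxia), as was the summed epithelial list (436 to 538 CPM against 325 to 351 in normoxia, 333 to 446 against 225 to 283 in hypoxia). Such sums are weighted to abundant genes, here Vim and Krt8 with the ranges above, and do not describe each gene of a list. Of 3 tested epithelial genes only Krt8 passed between genotypes. Of 7 tested fibroblast genes, Vim (log2 fold change 0.52 and 0.58) and Acta2 (3.10 and 2.96) were higher in FIH-KO cells in both conditions. The adjusted p by edgeR was 0.017 and 0.010 for Vim, and 0.0034 and 0.0498 for Acta2. In hypoxia Col3a1 was higher (1.22) and Pdgfra lower (-0.87, adjusted p = 0.032 by edgeR). The calls on Vim, on Acta2 in hypoxia and on Pdgfra depended on single libraries. Over 11 other fits the hypoxia values ranged from 0.47 to 0.68 for Vim, from 1.44 to 3.70 for Acta2 and from -1.43 to -0.46 for Pdgfra. In normoxia Vim ranged from 0.40 to 0.62. The part of any of these lists in the differences between genotypes below was not tested. In RNA from whole cultures, a smaller share of expressing cells and less RNA per cell cannot be told apart.

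The members spanned a wide range of levels. Compared per length of exon, as TPM values computed from the counts, Ccl2 was the highest, between 122 and 210 TPM over the 8 libraries, and Csf1 came next, between 72.6 and 115 TPM, with no overlap between the 2 genes. Ccl7 (6.51 to 15.7 TPM) and Cxcl1 (2.12 to 19.1 TPM) followed and overlapped. Cxcl5 reached 3.07 TPM, Cxcl10 reached 2.51 TPM and Cxcl2 reached 2.001 TPM, each with at least 1 library at 0, and these 3 overlapped. Cxcl12 had 2 reads in all 8 libraries together, Ccl5 had 3 and Il6 had 1. Such counts cannot be compared between groups, and only a limit can be given for them. A count of 0 over both libraries of a group allowed up to 0.0878 to 0.0947 CPM, counting error only. LLC cells thus gave abundant RNA for the monocyte chemokine Ccl2 and the macrophage factor Csf1, and next to none for Il6, Ccl5 and Cxcl12.

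**Figure D1:**
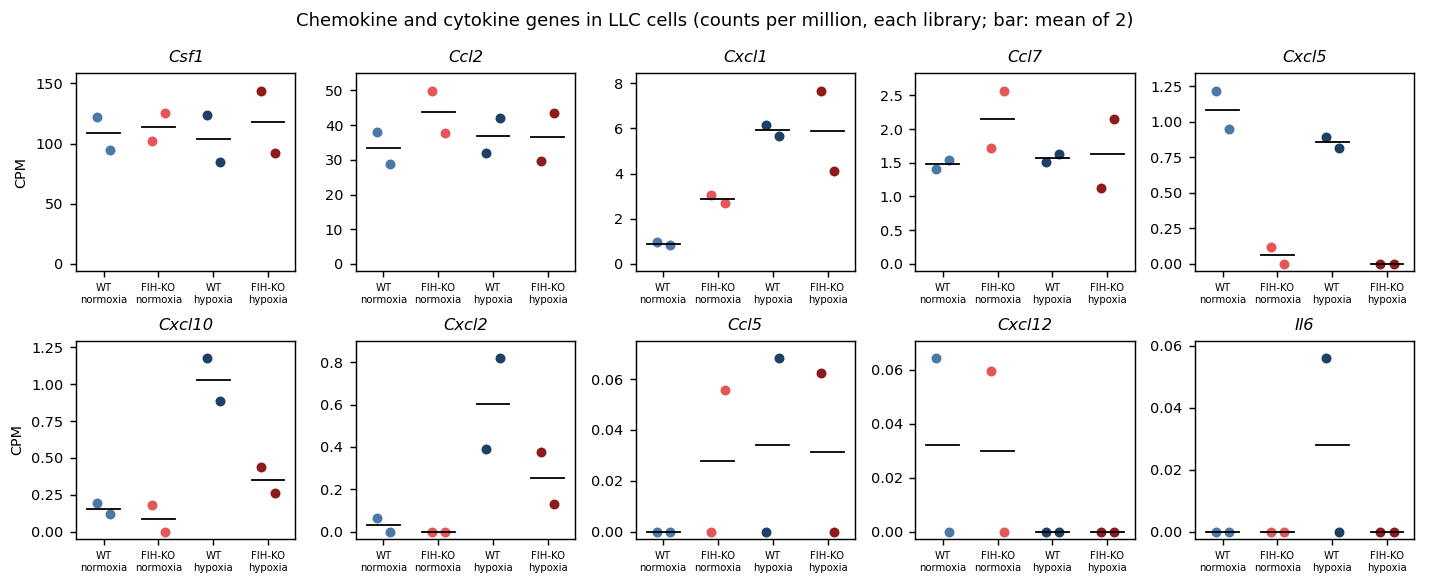
CPM (vertical axis, linear, own scale in each panel) of the 10 genes in each of the 8 libraries, by group, with the mean of the 2 libraries as a bar. Cxcl1 separates the WT normoxia libraries, at or below 0.963 CPM, from the other groups, and Cxcl5 separates both WT groups from both FIH-KO groups.

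Of the 10 genes, 6 held enough reads to be tested with edgeR's quasi-likelihood test (Csf1, Ccl2, Cxcl1, Ccl7, Cxcl5 and Cxcl10), with p values adjusted by the Benjamini-Hochberg method over the 13933 genes tested and a threshold of 0.05. Cxcl5 held 10 or more reads only in WT libraries, and Cxcl10 only in the WT hypoxia libraries. Both thus entered the test through the groups where they were high, and their calls and the shares below are not independent of that entry. In normoxia, 2 of the 6 differed between FIH-KO and WT cells: Cxcl1 was higher and Cxcl5 was lower. Among all tested genes 28.2% differed, 15.2% higher and 13.0% lower in FIH-KO cells. In hypoxia, 1 of the 6, Cxcl5, differed and was lower, against 28.0% of all tested genes (14.1% higher, 13.9% lower). The shares of members that differed between genotypes were thus near those of all genes, and the median log2 fold change of the 6 was 0.23 in normoxia and -0.0080 in hypoxia, against -0.0025 and -0.032 over all tested genes.

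Hypoxia raised 2 of the 6 in WT cells, Cxcl1 and Cxcl10, where 32.4% of all tested genes changed and 16.9% were higher. In FIH-KO cells hypoxia raised 1 of the 6, Cxcl1, where 16.8% of all tested genes changed and 8.84% were higher. The medians of the 6 were 0.12 and -0.10, against -0.0011 and -0.027 over all tested genes. The comparison of genotypes in normoxia and the response of WT cells to hypoxia use the same WT normoxia libraries and are not independent of each other.

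**Figure D2:**
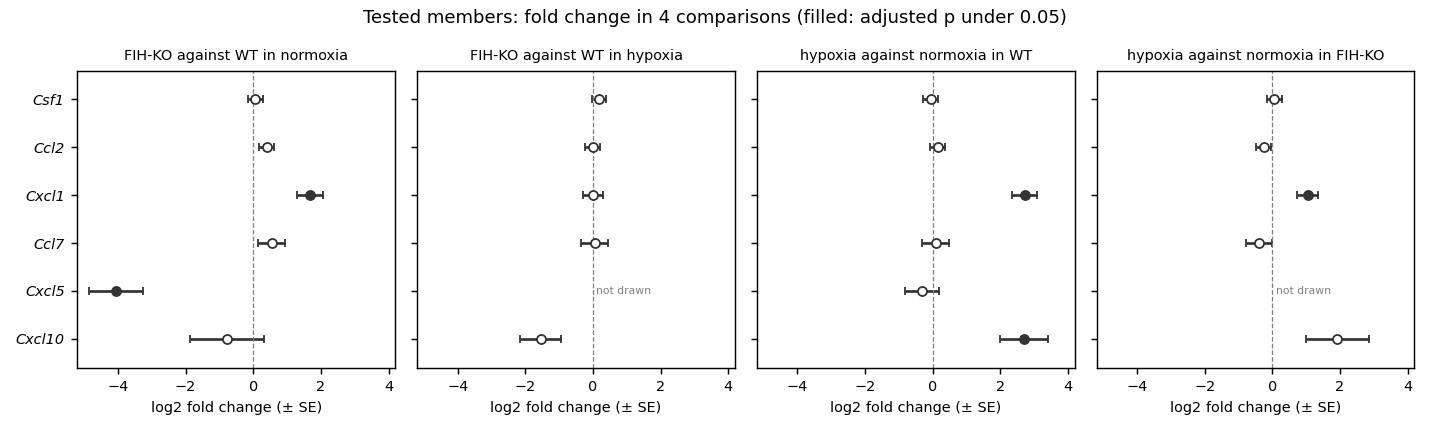
Log2 fold change (horizontal axis, with its standard error) of the 6 tested genes in 4 comparisons, with filled points where the adjusted p was under 0.05. Cxcl5 is not drawn where the FIH-KO hypoxia libraries, which held 0 reads, enter, and the filled points are Cxcl1 in 3 comparisons, Cxcl5 in 1 and Cxcl10 in 1.

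The neutrophil attractants Cxcl1, Cxcl2 and Cxcl5 lie close together on chromosome 5 of GRCm39, all on the plus strand, Cxcl5 (ENSMUSG00000029371.8) from 90907186 to 90909483, Cxcl1 (ENSMUSG00000029380.12) from 91039094 to 91040974 and Cxcl2 (ENSMUSG00000058427.11) from 91051730 to 91053797. Their RNA did not move as a block. Cxcl1 rose in hypoxia, Cxcl2 had nearly all of its reads there, and Cxcl5 did not pass the test for oxygen but separated the genotypes in both conditions.

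Cxcl1 had 0.963 and 0.829 CPM in the 2 WT normoxia libraries (15 and 14 reads) and 3.03 and 2.68 CPM in the FIH-KO normoxia libraries (51 and 48 reads). It had 6.16 and 5.66 CPM in WT hypoxia (110 and 83 reads) and 7.67 and 4.10 CPM in FIH-KO hypoxia (123 and 63 reads). Every FIH-KO normoxia library was above every WT normoxia library, every hypoxia library was above every normoxia library of either genotype, and the FIH-KO hypoxia pair lay on both sides of the WT hypoxia pair. In normoxia Cxcl1 was 3.18-fold higher in FIH-KO than in WT cells (log2 fold change 1.67, SE 0.39, adjusted p = 0.0072 by edgeR, and 0.068 without WT normoxia replicate 2). In hypoxia no difference was detected (-0.01, SE 0.30, adjusted p = 0.99 by edgeR). Hypoxia raised Cxcl1 6.57-fold in WT cells (2.72, SE 0.37, adjusted p = 0.00026 by edgeR) and 2.06-fold in FIH-KO cells (1.04, SE 0.31, adjusted p = 0.040 by edgeR). The second of these rested on FIH-KO hypoxia replicate 1, without which the log2 fold change was 0.52 with an adjusted p of 0.32, and it also missed the threshold in each fit without a library other than FIH-KO hypoxia replicate 2 (adjusted p of 0.060 to 0.17).

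Whether the response of Cxcl1 to hypoxia differed between the genotypes was tested directly as an interaction. The log2 difference was -1.67 (SE 0.49), with an unadjusted p of 0.0050 and an adjusted p of 0.50 by edgeR. No tested gene passed the adjusted threshold in this comparison (0%), while 925 genes had an unadjusted p under 0.05, Cxcl1 among them and no other member. DESeq2 called 40 genes there and no member, and the edgeR fit without a filter on low counts called 143 genes, Cxcl1 included (adjusted p = 0.043). A difference in the response of Cxcl1 was therefore not established at this number of libraries.

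Cxcl2 had 1 and 0 reads in WT normoxia, 0 and 0 in FIH-KO normoxia, 7 and 12 in WT hypoxia and 6 and 2 in FIH-KO hypoxia. All 4 hypoxia libraries were above all 4 normoxia libraries. The summed reads gave an 18.9-fold higher level in hypoxia in WT cells (95% exact interval of the counts 3.01 to 786) and an at least 2.88-fold higher level in FIH-KO cells, taking a floor of 3 reads over the group. In hypoxia the WT to FIH-KO ratio was 2.30 (0.961 to 6.07), an interval that includes no difference. These intervals cover counting error only. Cxcl2 was below the filter of the main test, and in the edgeR fit of every gene with a read its rise in WT cells had an adjusted p of 0.0097 and that in FIH-KO cells 0.053.

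Cxcl5 had 19 and 16 reads in WT normoxia and 2 and 0 in FIH-KO normoxia, and 16 and 12 reads in WT hypoxia against 0 and 0 in FIH-KO hypoxia. Each WT library was above each FIH-KO library. In normoxia the log2 fold change of FIH-KO over WT was -4.06 (SE 0.80, adjusted p = 0.0035 by edgeR), and the summed reads gave an 18.4-fold higher level in WT cells (95% exact interval of the counts 4.72 to 158). In hypoxia the level was at least 9.04-fold higher in WT cells (adjusted p = 0.0025 by edgeR). Oxygen made no detectable difference in WT cells (-0.33, SE 0.50, adjusted p = 0.66 by edgeR), and in FIH-KO cells both groups lay under the floor. Cxcl5 is the gene with the largest difference between genotypes among the 6 and had few reads, 65 in all, of which all but 2 came from WT libraries.

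The promoters of Cxcl1, Cxcl2, Cxcl10 and Il6 are shown because the first 3 rose in hypoxia, or had more reads there, while Il6 was silent. They are RefSeq windows of 300 bases, 250 before and 50 after the annotated start, on the gene's strand and in GRCm38.p6, where Cxcl1 is chr5:90890995-90891294 (plus), Cxcl2 chr5:90903649-90903948 (plus), Cxcl10 chr5:92348840-92349139 (minus) and Il6 chr5:30012864-30013163 (plus). A window was in the table for 6 of the 10 members (the others are Cxcl5, Ccl2, Ccl5 and Ccl7). Capitals mark matches on either strand to the NF-kB consensus, the hypoxia response core (ACGTG or GCGTG), the interferon-stimulated response element (GAAANNGAAA) and the AP-1 site (TGANTCA).
Cxcl1: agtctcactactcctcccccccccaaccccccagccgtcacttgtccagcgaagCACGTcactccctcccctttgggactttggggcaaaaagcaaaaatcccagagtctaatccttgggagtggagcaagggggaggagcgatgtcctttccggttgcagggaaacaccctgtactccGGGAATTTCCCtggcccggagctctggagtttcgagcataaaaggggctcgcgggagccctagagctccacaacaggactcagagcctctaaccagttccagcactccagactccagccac
Cxcl2: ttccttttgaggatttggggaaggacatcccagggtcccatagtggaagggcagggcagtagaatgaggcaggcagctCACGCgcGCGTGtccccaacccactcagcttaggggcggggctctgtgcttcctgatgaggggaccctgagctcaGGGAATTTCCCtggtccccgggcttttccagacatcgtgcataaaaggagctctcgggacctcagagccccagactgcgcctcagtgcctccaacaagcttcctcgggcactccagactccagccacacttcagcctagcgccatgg
Cxcl10: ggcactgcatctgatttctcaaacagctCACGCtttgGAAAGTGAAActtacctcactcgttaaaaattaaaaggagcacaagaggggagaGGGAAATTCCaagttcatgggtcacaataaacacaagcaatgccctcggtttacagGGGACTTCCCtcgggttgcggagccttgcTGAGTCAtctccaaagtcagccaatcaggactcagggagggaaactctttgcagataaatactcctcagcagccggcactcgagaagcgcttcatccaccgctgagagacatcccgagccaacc
Il6: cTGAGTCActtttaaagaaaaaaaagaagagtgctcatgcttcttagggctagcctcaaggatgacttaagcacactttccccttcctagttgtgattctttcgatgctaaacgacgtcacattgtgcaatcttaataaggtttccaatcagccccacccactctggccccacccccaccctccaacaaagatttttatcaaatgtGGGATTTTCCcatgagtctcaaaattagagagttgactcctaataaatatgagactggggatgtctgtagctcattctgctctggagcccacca

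The NF-kB consensus matched in 5 of the 6 windows, all but that of Cxcl12, whereas 4.51% of the 32851 windows of all genes held a match. Cxcl1 and Cxcl2 carried the same 11 bases, GGGAATTTCCC, which match on both strands in overlapping frames and start 71 and 97 bases before the start site. Cxcl10 had 2 matches, GGGAAATTCC and GGGACTTCCC, Csf1 had GGAAAGTCCC (a match on the minus strand) and Il6 had GGGATTTTCC. The hypoxia response core was in 3 of the 6 windows, 1 match in Cxcl1, 2 in Cxcl2 and 1 in Cxcl10, and in 43.8% of all windows. The interferon element was found only in Cxcl10, as GAAAGTGAAA (3.44% of all windows), and the AP-1 site in Cxcl10 and Il6, as TGAGTCA (7.81% of all windows). A match describes the letters of the window. The NF-kB letters were also present in Il6, which was silent, and in Csf1, which did not pass the test in any comparison.

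Cxcl10, the interferon-inducible T cell attractant, lies on the minus strand of chromosome 5 from 92494497 to 92496748, wholly within the span of Art3 on the opposite strand, which had 49 reads in the 8 libraries. Cxcl10 had 3 and 2 reads in WT normoxia, 3 and 0 in FIH-KO normoxia, 21 and 13 in WT hypoxia and 7 and 4 in FIH-KO hypoxia. Each hypoxia library was above each normoxia library, and the WT hypoxia libraries were above the FIH-KO ones. Hypoxia raised it in WT cells by 2.69 on the log2 scale (SE 0.71, adjusted p = 0.013 by edgeR), and the summed reads gave a 6.77-fold rise (95% exact interval of the counts 2.64 to 22.2). In FIH-KO cells the change of 1.92 (SE 0.94) did not pass the test (adjusted p = 0.19 by edgeR). In hypoxia Cxcl10 was 2.99-fold higher in WT cells by summed reads (1.48 to 6.55), a difference that did not pass the test across all genes (log2 fold change of FIH-KO over WT -1.55, SE 0.62, adjusted p = 0.081 by edgeR). The call in WT cells rested on 34 reads in hypoxia and was lost with DESeq2 (adjusted p = 0.061) and without WT hypoxia replicate 1 (0.085), WT normoxia replicate 1 (0.058) or WT normoxia replicate 2 (0.11).

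The monocyte attractants Ccl2 and Ccl7 are neighbors on the plus strand of chromosome 11 (Ccl2 from 81926397 to 81928279, Ccl7 from 81936532 to 81938351, 8.25 kb apart). Ccl2 had 37.9 and 28.8 CPM in WT normoxia, 49.97 and 37.8 CPM in FIH-KO normoxia, 32.0 and 41.9 CPM in WT hypoxia and 29.7 and 43.6 CPM in FIH-KO hypoxia. All groups overlapped. The log2 fold change of FIH-KO over WT was 0.40 in normoxia (SE 0.21, adjusted p = 0.19 by edgeR) and -0.01 in hypoxia (SE 0.21), and that of hypoxia was 0.15 in WT cells and -0.26 in FIH-KO cells (SE 0.21 each). Ccl7 had between 18 and 46 reads per library. Its log2 fold changes lay between -0.40 and 0.54 with standard errors of 0.38 to 0.40, and none passed the test. The third CC chemokine, Ccl5 (minus strand of chromosome 11 from 83416602 to 83425942), had at most 1 read in any library.

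Csf1 lies on the minus strand of chromosome 3 from 107648364 to 107667806. It had 122 and 95.0 CPM in WT normoxia, 102 and 125 CPM in FIH-KO normoxia, 124 and 84.4 CPM in WT hypoxia and 144 and 91.9 CPM in FIH-KO hypoxia. The libraries of a group differed from each other by more than the group means did. The log2 fold changes lay between -0.06 and 0.18 in the 4 comparisons with standard errors of 0.22, and the adjusted p lay between 0.58 and 0.90 by edgeR. Over the 683 tested genes of chromosome 3 the median log2 fold change of FIH-KO over WT was -0.36 in normoxia and -0.41 in hypoxia, so that Csf1, at 0.06 and 0.18, stood above the median of its chromosome. Its nearest tested neighbors were Ahcyl1, which was lower in FIH-KO cells (-0.44 in normoxia and -0.43 in hypoxia, SE 0.11 each, adjusted p = 0.012 and 0.014 by edgeR, but up to 0.097 without WT normoxia replicate 1 or 2 or FIH-KO normoxia replicate 1, and up to 0.12 without WT hypoxia replicate 2 or FIH-KO hypoxia replicate 2), and Gm5075 (-0.23 and 0.02, SE 0.28 each, not passing the test).

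Csf1r, the receptor of Csf1 and a marker of macrophages, had 0 and 2 reads in WT normoxia and 1 and 0 in FIH-KO normoxia, but 53 and 22 in WT hypoxia and 31 and 10 in FIH-KO hypoxia. Every hypoxia library was above every normoxia library, while Csf1 itself did not pass the test. Csf1r entered the test through the hypoxia groups, where it was high, so its adjusted p values are not independent of that entry. The summed reads gave a 37.4-fold higher level in hypoxia in WT cells (95% exact interval of the counts 9.99 to 314) and 44.3-fold in FIH-KO cells (7.51 to 1790), with adjusted p = 0.0015 and 0.0076 by edgeR, the second of which rose to at most 0.060 without FIH-KO normoxia replicate 2 or FIH-KO hypoxia replicate 1. Of the 13 leukocyte markers only 4 were tested, Csf1r among them, so the others could not pass. Among the rest of those tested, Cd14 passed for hypoxia in WT cells (log2 fold change 0.63, SE 0.22, adjusted p = 0.044 by edgeR), and none passed in FIH-KO cells. The call on Cd14 was lost with upper-quartile scaling and without any one of the 4 WT libraries. Over the other fits its log2 fold change lay between 0.50 and 0.73. Ptprc stayed at or below 0.205 CPM in every library. The part of other cells in the level of Csf1r was not tested.

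The 2 remaining members were at the limit of detection. Cxcl12 (plus strand of chromosome 6 from 117144945 to 117158328) had 1 read in a WT normoxia library and 1 in a FIH-KO normoxia library. Il6 (plus strand of chromosome 5 from 30218112 to 30224979) had 1 read in a WT hypoxia library, and the antisense gene Gm42450 across it had none. No fold change can be given for either. The receptors were nearly as silent: of 23 chemokine receptors 11 had no read, 20 had at most 10 reads over all libraries, and the only one tested was Ackr3, the scavenging receptor of Cxcl12, which hypoxia raised in WT cells (log2 fold change 1.14, SE 0.38, adjusted p = 0.037 by edgeR) and in FIH-KO cells (1.75, SE 0.37, adjusted p = 0.0078). The call on Ackr3 in WT cells was lost without WT hypoxia replicate 1 (log2 fold change 0.40) or WT normoxia replicate 2 (0.78), and that in FIH-KO cells without FIH-KO normoxia replicate 1 (1.55, adjusted p = 0.075).

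The 3' untranslated regions (UTRs) of the members differ in the AU-rich pentamer ATTTA, a letter pattern known from short-lived cytokine mRNAs. In the canonical GENCODE transcripts 9 of the 10 members held it, as did 73.6% of the 11511 tested genes with a 3' UTR. Per kilobase, 8 members were at or above the median of these genes (1.37) and 5 were at or above their 90th percentile (3.99). Cxcl2 had 11 in 734 bases (14.99 per kb), Il6 had 6 in 427 bases (14.1 per kb) and Cxcl1 had 7 in 592 bases (11.8 per kb). Csf1, the member with the most reads, had 4 in 2111 bases (1.89 per kb), and Ccl5 had none. The densest stretch of 30 bases is shown for Cxcl1, Cxcl2 and Csf1, the members with a high and a moderate density among those detected, with ATTTA in capitals, and begins at base 79, 123 and 2021 of the UTR.
Cxcl1: gagggtcctATTTATTTAtgtATTTATTTA
Cxcl2: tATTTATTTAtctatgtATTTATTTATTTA
Csf1: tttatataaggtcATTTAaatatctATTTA

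**Figure D3:**
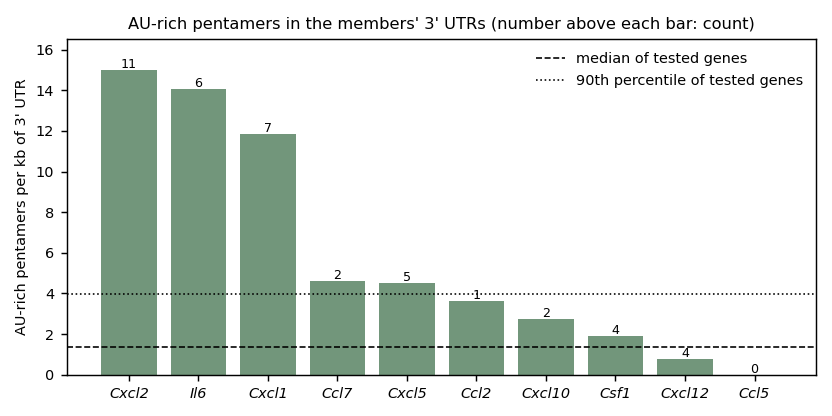
Number of ATTTA pentamers per kilobase of 3' UTR (bars, vertical axis from 0) for the 10 genes, with the count above each bar and the median and 90th percentile of tested genes as lines. Cxcl2, Il6 and Cxcl1 stand at 11.8 or more per kb, and the other members stay at or below 4.598.

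Among 30 other chemokine ligands, 14 had no read and 6 were tested. In FIH-KO cells in normoxia 3 of the 6 were higher (Ccl28, Ccl9 and Cx3cl1) and none lower, beside 15.2% and 13.0% of all tested genes. In hypoxia 2 were higher (Ccl28 and Cx3cl1) and 1 lower (Cxcl16), beside 14.1% and 13.9%. The number higher in normoxia was 0 without WT normoxia replicate 1 and 1 without FIH-KO normoxia replicate 1, and the number higher in hypoxia was 0 without WT hypoxia replicate 1 and 1 with DESeq2 or without WT hypoxia replicate 2 or FIH-KO hypoxia replicate 2. Cx3cl1, a membrane-bound chemokine for monocytes and T cells, had 11.2 and 17.3 CPM in WT and 31.4 and 27.0 CPM in FIH-KO cells in normoxia, and 8.51 and 11.7 against 18.0 and 20.03 CPM in hypoxia. Its log2 fold changes were 1.03 (SE 0.22, adjusted p = 0.0042 by edgeR) and 0.92 (SE 0.22, adjusted p = 0.0097 by edgeR), with adjusted p = 0.064 in normoxia without WT normoxia replicate 1 and 0.10 in hypoxia without WT hypoxia replicate 1. Ccl28, a mucosal chemokine, was higher by 1.57 and 1.26 on the log2 scale (SE 0.36 and 0.40, adjusted p = 0.0064 and 0.032 by edgeR). Over 11 other fits these values ranged from 1.40 to 1.73 and from 0.76 to 1.64. The call on Ccl28 in hypoxia was lost with DESeq2, and both calls depended on single libraries. Cxcl16, the ligand of Cxcr6, had 39 and 38 reads in WT hypoxia and 9 and 8 in FIH-KO hypoxia, a log2 fold change of -2.12 (SE 0.47, adjusted p = 0.0056 by edgeR) that passed in all 11 alternatives, which were RLE and upper-quartile scaling, DESeq2 and each library left out. Ccl9, a myeloid attractant, had 0 to 0.0592 CPM in the WT normoxia libraries and 0.503 to 0.833 CPM in the FIH-KO ones. The WT normoxia libraries were too low to bring Ccl9 into the test. Its call and the 3 of 6 are thus not independent of its entry. Ccl20, named after its values were seen, had 9 and 7 reads in WT hypoxia, 1 and 0 in FIH-KO hypoxia and none in normoxia.

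Of 23 other cytokines 9 were tested, and in hypoxia 3 were lower in FIH-KO than in WT cells (Il11, Il34 and Lif) and 1 was higher (Kitl), beside 13.9% and 14.1% of all tested genes. The split was 1 lower and 2 higher without FIH-KO hypoxia replicate 2, 1 lower and 1 higher without WT hypoxia replicate 1, and 2 lower and none higher without FIH-KO hypoxia replicate 1 or WT hypoxia replicate 2. Without WT normoxia replicate 2 it was 2 lower and 1 higher. The calls on Il11 held in all 11 alternatives. Il11, a gp130 cytokine of the same family as Il6, had 6.93 and 4.38 CPM in WT normoxia, 1.01 and 1.23 in FIH-KO normoxia, 33.9 and 28.8 in WT hypoxia and 5.74 and 8.39 in FIH-KO hypoxia. It rose in hypoxia in both genotypes (2.47 and 2.64 on the log2 scale, SE 0.25 and 0.32) and was lower in FIH-KO cells in normoxia (-2.32, SE 0.32, adjusted p = 0.00035 by edgeR) and in hypoxia (-2.15, SE 0.24, adjusted p = 9.8e-05 by edgeR). Lif, also a gp130 cytokine, had 8.73 and 8.05 CPM in WT normoxia and 38.2 and 38.5 in WT hypoxia, against 10.8 and 11.5 and then 29.9 and 16.3 CPM in FIH-KO cells, with a log2 fold change of FIH-KO over WT of -0.73 in hypoxia (SE 0.22, adjusted p = 0.028 by edgeR). That call on Lif was lost without either WT hypoxia library, WT normoxia replicate 2 or FIH-KO hypoxia replicate 2 (adjusted p up to 0.14). Hypoxia raised 4 of the 9 in each genotype (Clcf1, Il11, Il33 and Lif in WT cells, and Il11, Il33, Lif and Mif in FIH-KO cells) and lowered none, beside 16.9% and 8.84% of all tested genes raised. In FIH-KO cells the number was 2 without FIH-KO normoxia replicate 1 or FIH-KO hypoxia replicate 1. So the gp130 ligands Il11 and Lif rose with oxygen deprivation in cells in which Il6 was silent.

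**Figure D4:**
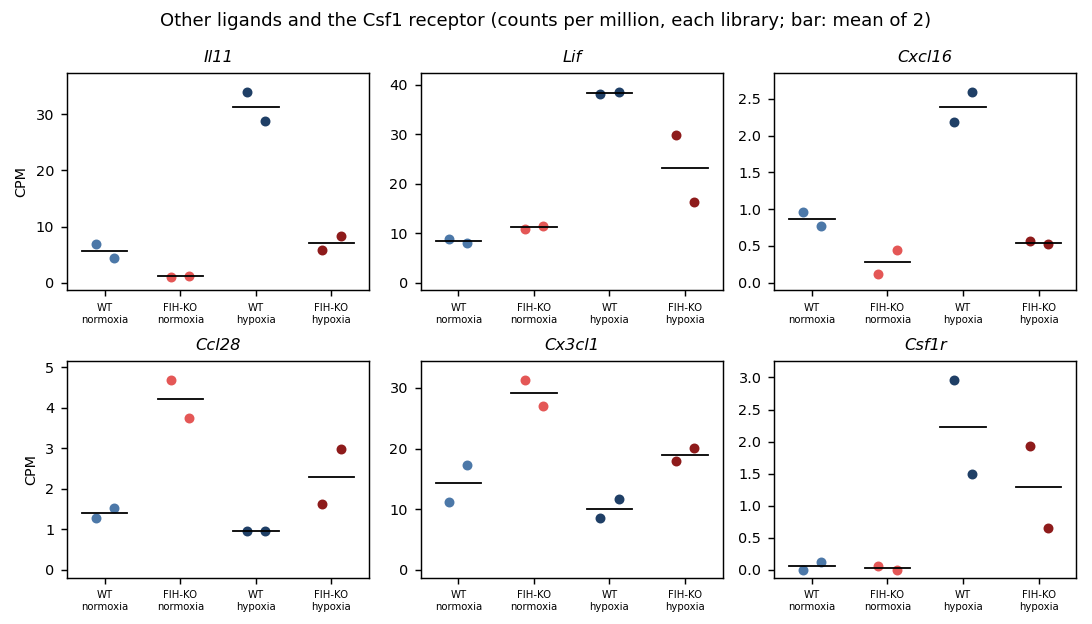
CPM (vertical axis, linear, own scale in each panel) of 5 other ligands and of Csf1r in each library, by group, with the mean of the 2 libraries as a bar. Il11 and Cxcl16 are lower in the FIH-KO than in the WT hypoxia libraries, Ccl28 and Cx3cl1 are higher in FIH-KO libraries, and Csf1r is near 0 in all 4 normoxia libraries.

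Genes of the NF-kB, interferon, mRNA decay and cytokine receptor pathways were read from lists, and whether they act on the members was not tested. Of 24 NF-kB pathway genes, all tested, hypoxia raised 9 in WT cells and 6 in FIH-KO cells and lowered none, with medians of 0.41 and 0.14 on the log2 scale, where 16.9% and 8.84% of all tested genes were raised. The numbers fell to 5 in WT cells without WT normoxia replicate 2, and in FIH-KO cells to 2 without FIH-KO normoxia replicate 1 and 3 without FIH-KO normoxia replicate 2 or FIH-KO hypoxia replicate 1. Among those raised in both were Tnfaip3, Nfkbia, Nfkbiz and Relb, named after their values were seen, and the calls on Tnfaip3 and Nfkbiz held in all 11 alternatives in both genotypes. Tnfaip3, a feedback inhibitor, had 2.50 and 1.12 CPM in WT normoxia and 17.4 and 11.9 in WT hypoxia, and 1.31 and 1.34 against 8.67 and 5.85 CPM in FIH-KO cells.

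Between genotypes the NF-kB list went both ways, and its split depended on single libraries. In normoxia 6 were higher and 4 lower in FIH-KO cells, beside 15.2% and 13.0% of all tested genes. The split was 5 and 5 with upper-quartile scaling, 6 and 6 without either FIH-KO hypoxia library, 4 and 4 without FIH-KO normoxia replicate 2, and 3 and 1 without FIH-KO normoxia replicate 1 or either WT normoxia library. In hypoxia 3 were higher and 7 lower, beside 14.1% and 13.9%, against 0 and 4 without WT hypoxia replicate 1, 0 and 5 without WT hypoxia replicate 2, 1 and 7 without FIH-KO hypoxia replicate 1 and 4 and 4 without FIH-KO hypoxia replicate 2. Nfkb2, which encodes p100, had 155 and 144 CPM in WT hypoxia and 73.8 and 61.2 CPM in FIH-KO hypoxia (log2 fold change -1.15, SE 0.12, adjusted p = 6.2e-05 by edgeR), a call that held in all 11 alternatives. Nfkb1, which encodes p105, was lower in FIH-KO cells in both conditions (-0.52 and -0.47, SE 0.12 each, adjusted p = 0.0057 and 0.010 by edgeR), with 0.078 in normoxia without WT normoxia replicate 2 and 0.062 in hypoxia without WT hypoxia replicate 2. Ikbkg was higher in normoxia (0.82, SE 0.13) in every alternative. Its call in hypoxia (0.45, SE 0.13) and those of Rela and Chuk, which were lower there (-0.43, SE 0.14, and -0.42, SE 0.12), were each lost in 2 to 5 of the fits without a library, FIH-KO hypoxia replicate 1 and a WT hypoxia library among them for each gene. The call on Irak1 in normoxia (0.32, adjusted p = 0.046 by edgeR) was lost in 8 of 11 alternatives, with upper-quartile scaling, DESeq2 and every library left out other than the 2 FIH-KO hypoxia ones (adjusted p up to 0.35).

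Of 15 tested interferon pathway genes, 5 were higher in normoxia and 9 in hypoxia in FIH-KO cells, beside 15.2% and 14.1% of all tested genes, and none was lower. The number in normoxia was 3 without FIH-KO normoxia replicate 1 or WT normoxia replicate 2, and the number in hypoxia was 3 without WT hypoxia replicate 1, 4 without FIH-KO hypoxia replicate 2 and 5 without WT hypoxia replicate 2. Stat2, a subunit of the interferon-activated transcription factor, was higher by 1.23 and 1.22 on the log2 scale (SE 0.19 each), and Ifngr1, a chain of the interferon gamma receptor, was also higher in both conditions. These calls on Stat2 and Ifngr1 held in all 11 alternatives. Irf1 (0.65 and 0.64, SE 0.16 each) and Mavs were higher in both, and Ddx58 and Tbk1 in hypoxia, each in fewer of the alternatives (adjusted p up to 0.17). Cxcl10, the interferon-inducible member, did not pass the test between genotypes in either condition. In normoxia it held 5 reads in WT and 3 in FIH-KO cells, too few to show a difference in either direction. In hypoxia its log2 fold change of FIH-KO over WT was -1.55 (SE 0.62). In WT cells hypoxia raised 1 of the 15 (Irf9) and lowered 4, of which 1 was left without any one of the 4 WT libraries, and in FIH-KO cells none passed the test in either direction.

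Of 11 genes of AU-rich and stem-loop mRNA decay or its control, 6 rose in hypoxia in WT cells and 3 in FIH-KO cells, beside 16.9% and 8.84% of all tested genes. Arid5a was counted in both. The calls on Zfp36 and Zfp36l1 in WT cells were lost in 2 and 4 of 11 alternatives. That on Zc3h12a in FIH-KO cells was lost in 8, DESeq2 among them. In WT cells 1 (Hnrnpd) fell, a call lost without WT normoxia replicate 1 or WT hypoxia replicate 1 (log2 fold change -0.68 to -0.46 over the alternatives). Between genotypes 4 were higher and 1 lower in FIH-KO cells in normoxia, beside 15.2% and 13.0%, and 2 were higher and none lower without WT normoxia replicate 2. Zc3h12a, which encodes an endonuclease for cytokine mRNAs, was higher in normoxia (1.16, SE 0.23) in every alternative, and its call in hypoxia (0.67, SE 0.21) was lost without either WT hypoxia library, FIH-KO hypoxia replicate 1 or WT normoxia replicate 1 (adjusted p up to 0.14). Zfp36l1 was higher in normoxia in every alternative too. The call there on Rc3h2, which was higher, depended on WT normoxia replicate 2. That on Zfp36, which encodes tristetraprolin (0.79, SE 0.22), depended on either WT normoxia library and on FIH-KO normoxia replicate 1. That on Tia1, which was lower, depended on every normoxia library. Over the alternatives the log2 fold changes ranged from 0.48 to 0.62 for Rc3h2, from 0.73 to 0.85 for Zfp36 and from -0.61 to -0.37 for Tia1. Arid5a, known to stabilize Il6 mRNA, had 8.41 and 11.1 CPM in WT normoxia and 64.2 and 46.8 in WT hypoxia, and 32.4 and 25.3 CPM in FIH-KO hypoxia (FIH-KO over WT -0.94, SE 0.19, adjusted p = 0.0036 by edgeR, and 0.057 without WT hypoxia replicate 1).

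Of 17 tested cytokine receptors and signal genes, 8 were higher and 1 lower in FIH-KO cells in normoxia, and 5 higher and 1 lower in hypoxia. Among all tested genes 15.2% were higher and 13.0% lower in normoxia, and 14.1% and 13.9% in hypoxia. The 8 fell to 2 without WT normoxia replicate 1 and to 3 without WT normoxia replicate 2 or FIH-KO normoxia replicate 1, and the 5 fell to 3 without WT hypoxia replicate 2. Jak1, a kinase of cytokine receptors, was higher by 0.87 and 0.84 (SE 0.14 each) in every alternative. Il1r1, the interleukin-1 receptor, was higher by 0.84 in hypoxia (SE 0.12) in every alternative and by 0.43 in normoxia. That second call and those of Tnfrsf1a and Stat3 in normoxia were each lost without either WT normoxia library or FIH-KO normoxia replicate 1 (adjusted p up to 0.14, 0.27 and 0.25). Il6st, which encodes gp130, was higher in normoxia and missed the threshold without WT normoxia replicate 1 (0.087). Jak2 was lower in hypoxia (-0.44) and missed the threshold without WT normoxia replicate 2, WT hypoxia replicate 2 or FIH-KO hypoxia replicate 1 (adjusted p up to 0.10).

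**Figure D5:**
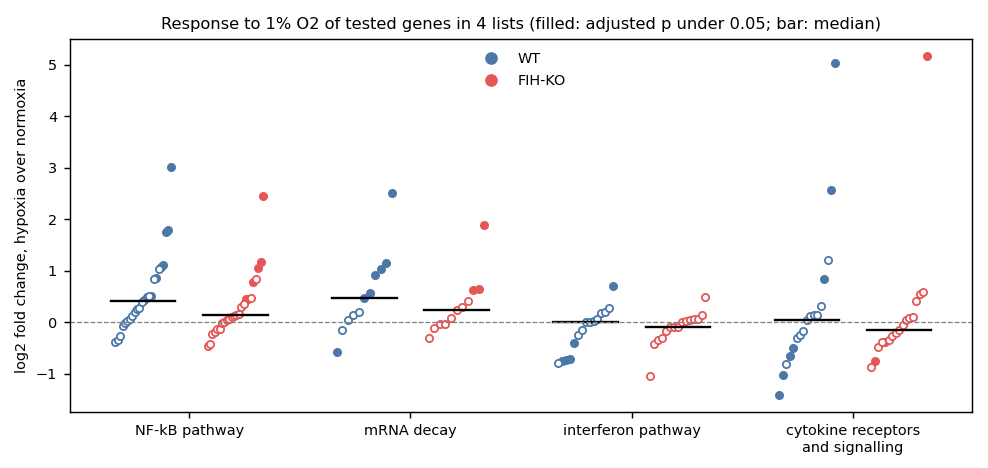
Log2 fold change of hypoxia over normoxia (vertical axis) for each tested gene of 4 lists, WT in blue and FIH-KO in red, filled where the adjusted p was under 0.05, with the median as a bar. The NF-kB and mRNA decay medians lie above 0 in WT cells, at 0.41 and 0.48, and the points above 5 are Csf1r, whose normoxia level rests on 3 reads.

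The nearest tested gene below Cxcl1 was Ppbp, also a chemokine gene, with a log2 fold change under hypoxia in WT cells of -1.83 (SE 0.64, adjusted p = 0.046 by edgeR), a call lost in 7 of 11 alternatives, namely with DESeq2 and without any one of the 4 WT or 2 FIH-KO normoxia libraries (adjusted p up to 0.22). The nearest above was Mthfd2l, which hypoxia lowered in WT cells (-0.82, SE 0.19, adjusted p = 0.0060 by edgeR, and 0.064 without WT hypoxia replicate 1). Next to Cxcl10, Sdad1 and Nup54 were lower in FIH-KO cells in normoxia (-0.77 and -0.53) and in hypoxia (-0.79 and -0.56), and only the call on Nup54 in normoxia was lost in an alternative (adjusted p = 0.054 without WT normoxia replicate 1). The lower neighbor of Ccl2, Tmem98, lay 1213 kb away and did not differ between genotypes beyond its error.

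Among 9931 tested genes with a mean of at least 5 CPM, those whose log2 CPM ran most like that of Cxcl1 over the 8 libraries were Ttc39c and Mdm2 (Pearson r of 0.987 each). For Csf1 they were Rpl39-ps (0.926), a pseudogene whose reads may come from its parent gene, and Dapk3 (0.906), and for Ccl2 they were Stk38 (0.915) and Cbr4 (0.894). These are descriptions over 8 libraries that share their groups.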

How the data were processed

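RNA from WT and FIH-KO LLC cells was sequenced by the authors, who, per their methods, demultiplexed with bcl2fastq, aligned paired-end reads of stranded mRNA libraries to GRCm39 with STAR, counted them with HTSeq and tested them with DESeq2. The labels list both GRCm38 and GRCm39. The deposited table holds unnormalized whole-number counts for 53700 genes, and depth ran from 14519731 to 18177016 counts per library. The annotation release, the strand setting and the treatment of reads with several hits were not given in the sources used here.

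Counts were fitted with edgeR 4.0.16 under R 4.3.3 (TMM, filterByExpr by group, quasi-likelihood test, 4 group means, Benjamini-Hochberg over 13933 genes, threshold 0.05). The standard error is the absolute log2 fold change over the root of F. The model was tested on simulated data. The alternatives were DESeq2 1.42.0, RLE and upper-quartile scaling, the replicate number as a block, each library left out, a fit of the 4 libraries of a comparison alone, and filters of 1 read in any library or 10 counts in all of them. Ratios of summed reads used library totals with exact binomial intervals (scipy 1.17.1), and a floor of 3 reads over a group stood in for 0.

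Gene positions and exon lengths came from GENCODE M39 (GRCm39), which held 52610 of the 53700 identifiers, and TPM were computed from the counts with these lengths. Promoter windows came from RefSeq (GRCm38.p6) and were used for their letters only. The members, lists and tests were chosen with earlier results of these data known. Named were all 10 members, the 2 genes most like each of the 3 most abundant members, and the nearest tested genes of Ccl2, Cxcl1, Cxcl10 and Csf1. Of each list, up to 6 genes with the highest mean CPM among those called between genotypes were named. Of the first 4 genes of each marker list, all were named for leukocytes and only some for the other lists. Other names were chosen after their values were seen.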

Additional observations from a re-analysis of the deposited data

How the results depend on the processing

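Of 432 fold changes of tested members under the alternatives, 384 kept their direction and their side of the threshold, 13 fell below it, 1 rose past it and 34 changed sign, none of which had passed the test. The 13 were Cxcl1 in the comparison of genotypes in normoxia (1 alternative), Cxcl1 under hypoxia in FIH-KO cells (8) and Cxcl10 under hypoxia in WT cells (4). The difference of Cxcl5 between genotypes passed the test in every fit that held it. It could not be fitted with at least 10 counts required in every library, a filter that removed Cxcl5 and Cxcl10, and the number of members called then was 1 between genotypes in normoxia, 0 in hypoxia, and 1 under hypoxia in WT cells. DESeq2 also called 1 member under hypoxia in WT cells. With only the 4 libraries of the comparison, hypoxia in FIH-KO cells called 0 members and 1249 genes. For the interaction, DESeq2 called 40 genes, no filter beyond 1 read called 143 genes and 1 member, and the replicate block called 5 genes and no member.

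The values whose sign changed were at most 0.78 in size (log2) in the main analysis. FIH-KO against WT in hypoxia was 0.0063 for Ccl2 with at least 10 counts, 0.030 with no filter, 0.018 with only the 4 libraries and 0.0053 with upper-quartile scaling, and for Cxcl1 it was 0.0034 with DESeq2, 0.0038 with RLE, 0.011 with at least 10 counts, 0.030 with no filter, 0.023 with only the 4 libraries and 0.0070 with upper-quartile scaling. Without each library in turn it ranged from -0.31 to 0.24 for Ccl2, from -0.48 to 0.45 for Ccl7, from -0.18 to 0.48 for Csf1 and from -0.53 to 0.37 for Cxcl1. In normoxia the range was -0.13 to 0.26 for Csf1 and -4.40 to 0.20 for Cxcl10, whose low end came from a group left with 0 reads. Under hypoxia it was -0.30 to 0.34 for Csf1 in FIH-KO cells, and -0.069 to 0.36 for Ccl2 and -0.36 to 0.19 for Csf1 in WT cells. For the interaction it was -0.24 to 0.42 for Csf1 and -1.75 to 2.85 for Cxcl10, and the interaction and the effect of hypoxia in FIH-KO cells could not be fitted for Cxcl5 without FIH-KO normoxia replicate 1, which left both groups at 0 reads.

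Without each library in turn, the genes called numbered 1725 to 4587 between genotypes in normoxia (members 1 to 2), 2194 to 3928 in hypoxia (members 1), 2138 to 5148 under hypoxia in WT cells (members 1 to 2), 1118 to 2580 in FIH-KO cells (members 0 to 1), and 0 to 17 for the interaction. The lone library of a group was then assumed to vary like the others. NF-kB genes raised by hypoxia numbered 5 to 10 in WT cells and 2 to 7 in FIH-KO cells, and interferon genes higher in FIH-KO cells 3 to 7 in normoxia and 3 to 9 in hypoxia. The replicate numbers were shared between groups only as numbers: the deviations of the libraries numbered 1 correlated between -0.010 and 0.19 over the pairs of groups, and the replicate block changed no call on a member.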
